A study of Mus musculus with 4 samples.

Results

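This report describes 9 mouse genes that brake or release the cell cycle, in MLg cells, a mouse lung fibroblast line (ATCC CCL-206). The genes were taken by name from 21755 protein-coding genes with GENCODE positions on mm10: the CDK inhibitors *Cdkn2a*, *Cdkn2b*, *Cdkn2c*, *Cdkn1a* and *Cdkn1b*, the tumour suppressors *Trp53* and *Rb1*, the p53 inhibitor *Mdm2* and the cyclin gene *Ccnd1*. The assay was H3K4me3-specific HiChIP-seq, which joins DNA ends that lie close together in the nucleus, selects the fragments that carry tri-methylated lysine 4 of histone 3, a mark of active promoters, and sequences both ends of each joined pair. There were 4 libraries, 1 per condition, so that no condition had a replicate. They were Control (labelled WT, with neither TGFB1 nor an antagomiR named for the library), TGFB1 (human recombinant TGFB1 at 5 ng/ml for the last 4 h), TGFB1+miR-9-LOF (the same TGFB1 treatment after transfection of an antagomiR against miR-9-5p at 60 nM) and miR-9-LOF (that antagomiR without TGFB1), and cells were harvested 24 h after transfection. The transfection protocol also lists a negative control antagomiR at 60 nM, and the study describes the cells without miR-9-LOF as transfected with a control antagomiR, although the labels of the Control and TGFB1 libraries do not name it.

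Cells pass from G1 into S phase once cyclin D with CDK4 or CDK6, and then cyclin E with CDK2, have phosphorylated the retinoblastoma protein, which otherwise holds back E2F transcription factors. INK4 proteins (encoded by *Cdkn2a*, *Cdkn2b* and *Cdkn2c*) block CDK4 and CDK6, whereas CIP/KIP proteins (encoded by *Cdkn1a* and *Cdkn1b*) block cyclin–CDK complexes more broadly. From another start and reading frame *Cdkn2a* also encodes ARF, which restrains MDM2, the ubiquitin ligase that targets p53, and in many cell types TGFB1 slows growth through *Cdkn2b* and *Cdkn1a*.

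The promoter windows below show the letters that the start sites of these genes carry in the reference. They are both starts of *Cdkn2a* and the start of *Cdkn2b*, which had almost no pair ends in these libraries. For *Cdkn1a* they are 2 of the 5 annotated starts, its 5′ end and its most covered start. The latter had the most pair ends near the start among the members. Last come the 2 RefSeq windows of *Cdkn2c*, the one INK4 gene of the 3 that was covered. The first of these belongs to a RefSeq start inside the gene, since the GENCODE 5′ end used for the counts (chr4:109667189) lies outside it, and the second holds the most covered start. They are RefSeq windows of GRCm38.p6, the assembly of mm10, written 5′ to 3′ along the gene's strand. Capitals mark the matches to the motifs described after them.

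Cdkn2a at the ARF start, chr4:89294570-89294869, minus strand: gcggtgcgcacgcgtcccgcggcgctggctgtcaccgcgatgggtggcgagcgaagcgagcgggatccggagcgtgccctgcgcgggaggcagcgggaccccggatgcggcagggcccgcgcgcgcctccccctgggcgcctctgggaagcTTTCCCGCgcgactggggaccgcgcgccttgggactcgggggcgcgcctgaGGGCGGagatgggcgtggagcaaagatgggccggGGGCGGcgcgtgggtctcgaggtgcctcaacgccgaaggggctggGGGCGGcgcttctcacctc
Cdkn2a at the p16 start, chr4:89282143-89282442, minus strand: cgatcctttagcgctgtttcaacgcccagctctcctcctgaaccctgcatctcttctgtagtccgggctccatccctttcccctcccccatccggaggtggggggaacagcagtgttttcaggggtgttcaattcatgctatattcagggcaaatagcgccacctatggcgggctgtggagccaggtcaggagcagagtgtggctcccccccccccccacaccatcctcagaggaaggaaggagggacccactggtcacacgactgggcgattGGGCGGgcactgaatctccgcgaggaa
Cdkn2b, chr4:89310983-89311282, minus strand: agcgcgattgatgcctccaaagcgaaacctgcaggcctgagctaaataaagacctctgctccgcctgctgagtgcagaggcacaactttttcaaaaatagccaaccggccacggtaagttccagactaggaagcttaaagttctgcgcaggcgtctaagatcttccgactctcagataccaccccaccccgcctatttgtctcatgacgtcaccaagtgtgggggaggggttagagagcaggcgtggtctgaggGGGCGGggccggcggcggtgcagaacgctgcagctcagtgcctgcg
Cdkn1a at the 5′ end, chr17:29090729-29091028, plus strand: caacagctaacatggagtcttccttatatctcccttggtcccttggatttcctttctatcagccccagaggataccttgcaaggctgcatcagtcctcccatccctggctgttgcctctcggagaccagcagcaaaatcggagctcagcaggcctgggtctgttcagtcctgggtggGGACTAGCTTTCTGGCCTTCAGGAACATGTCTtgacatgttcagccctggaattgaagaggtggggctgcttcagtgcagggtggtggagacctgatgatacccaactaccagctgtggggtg
Cdkn1a near the most covered start, chr17:29093519-29093818, plus strand: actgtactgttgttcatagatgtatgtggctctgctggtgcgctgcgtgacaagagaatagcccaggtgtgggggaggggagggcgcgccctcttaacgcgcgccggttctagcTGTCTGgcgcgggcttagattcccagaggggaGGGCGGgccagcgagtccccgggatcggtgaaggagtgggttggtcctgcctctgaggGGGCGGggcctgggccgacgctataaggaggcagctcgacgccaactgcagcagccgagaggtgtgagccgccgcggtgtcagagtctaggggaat
Cdkn2c at the RefSeq start nearer the 5′ end, chr4:109666707-109667006, minus strand: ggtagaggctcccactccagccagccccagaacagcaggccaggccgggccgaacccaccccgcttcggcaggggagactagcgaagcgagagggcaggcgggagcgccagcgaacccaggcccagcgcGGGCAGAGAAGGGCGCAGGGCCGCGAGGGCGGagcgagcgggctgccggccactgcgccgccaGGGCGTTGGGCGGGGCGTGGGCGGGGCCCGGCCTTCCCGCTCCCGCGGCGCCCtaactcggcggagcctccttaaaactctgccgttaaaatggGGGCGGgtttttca
Cdkn2c at the most covered start, chr4:109665323-109665622, minus strand: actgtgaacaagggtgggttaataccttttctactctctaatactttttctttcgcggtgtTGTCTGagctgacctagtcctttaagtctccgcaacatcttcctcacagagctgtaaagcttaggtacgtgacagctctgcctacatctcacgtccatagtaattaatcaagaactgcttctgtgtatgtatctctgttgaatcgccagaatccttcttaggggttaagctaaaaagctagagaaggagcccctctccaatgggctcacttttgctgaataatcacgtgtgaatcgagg

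The RefSeq promoter table held windows for 7 of the 9 genes and none for *Rb1* and *Ccnd1*, and it gave 10 windows for the 7 genes, which were searched on both strands. The Sp1 core GGGCGG was in 7 of the 10 windows, against 35.7% of 32851 promoter windows outside chromosome 18. The E2F motif TTTCCCGC was found at the ARF start of *Cdkn2a* alone among the members and in 1.07% of all windows. The pattern of a p53 response element, 2 half-sites RRRCWWGYYY at most 13 bases apart, matched at the 5′ end of *Cdkn1a*, itself a classical p53 target. In the pattern R is A or G, W is A or T, and Y is C or T. It matched in 0.0731% of all windows. The marked match pairs GGACTAGCTT with GAACATGTCT across a spacer. The letters tgacatgttc follow it directly and are unmarked, since their first base alone differs from the half-site pattern. Which of these half-sites p53 uses was not tested. The G-quadruplex pattern (4 runs of at least 3 G with loops of 1 to 7 bases) was in the first *Cdkn2c* window, where its matches overlap 3 of the 4 Sp1 cores, but not in the window at the most covered start, and in 18.6% of all windows. The letters TATAAA of the TATA box matched in the *Trp53* window (13.6% of all windows), on the opposite strand and at position -248 from the start. The SMAD box CAGACA matched in windows of *Cdkn1a* and *Cdkn2c* (21% of all windows). No member window held the AP-1 motif TGANTCA (7.81% of all windows) or the SMAD palindrome GTCTAGAC (0.213%). These matches are descriptions of letters, not of bound factors.

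The libraries held between 10864558 and 15568047 valid pairs, of which 80.2% to 84.6% joined ends on 1 chromosome. The share of ends that fell in the 8704 H3K4me3-enriched regions differed between libraries, with 9.61% in Control, 6.93% under TGFB1, 4.05% under TGFB1+miR-9-LOF and 4.70% under miR-9-LOF. An enriched region lay at 6 of 12 fibroblast marker starts (*Col1a1*, *Pdgfra*, *Pdgfrb*, *Vim*, *Twist1* and *Tbx5*, but not *Col1a2*, *Col3a1*, *Thy1*, *Fn1*, *Dcn* or *Lum*) and at 0 of 5 epithelial, 0 of 4 endothelial and 0 of 4 blood markers. Each marker was read at its most covered start, where 8720 of all 21755 coding genes had a region. The fibroblast count alone therefore does not set that list apart. Per marker gene, the level within 2 kb of the start was 5.99 to 13.1 ends per 1000000 across libraries for the fibroblast list, 3.00 to 3.93 for the epithelial, 2.03 to 2.40 for the endothelial and 2.46 to 2.59 for the blood list.

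The first comparison concerned the coverage of each locus. Pair ends over the gene and 50 kb on either side were set against the 5 Mb on either side of that window. The windows of *Cdkn2a* and *Cdkn2b* were almost without pair ends in all 4 libraries, and the other 7 windows were at or above their flanks. The *Cdkn2a* window (gene at chr4:89274471-89294653, ENSMUSG00000044303.6) held 10 ends in Control, 2 under TGFB1, 9 under TGFB1+miR-9-LOF and 5 under miR-9-LOF. That was 2.30%, 0.634%, 2.19% and 1.13% of the density of its flank, with a highest upper bound of 4.24% (95% exact Poisson interval, which here and below covers counting error only). This flank takes in part of the empty stretch described below, and its density was 0.382 to 0.395 of the autosome mean. The *Cdkn2b* window (gene at chr4:89306299-89311039, ENSMUSG00000073802.5) held 6, 2, 3 and 2 ends in the same order, or 1.70%, 0.781%, 0.90% and 0.555% of its flank. Every interval of these windows lay under the limit of 10% by which a gap was defined, and with so few ends the libraries were not compared with each other.

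Among all coding genes, 457 of 21752 windows (2.1%) met the same criterion in all 4 libraries, so the count alone does not set the 2 members apart. Where at least 80% of the sampled 31-base words in the window occur once in the genome, which held for 17439 genes, 4 windows met the criterion, and all 4 lay in the same stretch of chromosome 4 (*Cdkn2b*, *Elavl2*, *Izumo3* and *Gm12666*). *Cdkn2a*, with 77.2% of words occurring once, came in at a minimum of 70%, where 7 of 19354 windows met the criterion and 6 of the 7 lay in that stretch, with *Skint3* as the exception. At a minimum of 60%, 11 of 20185 windows met it, 7 in the stretch and 4 elsewhere. The word check was chosen after the coverage had been seen. Whether the sequence is missing from the cells or was not captured was not tested.

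**Figure D1:**
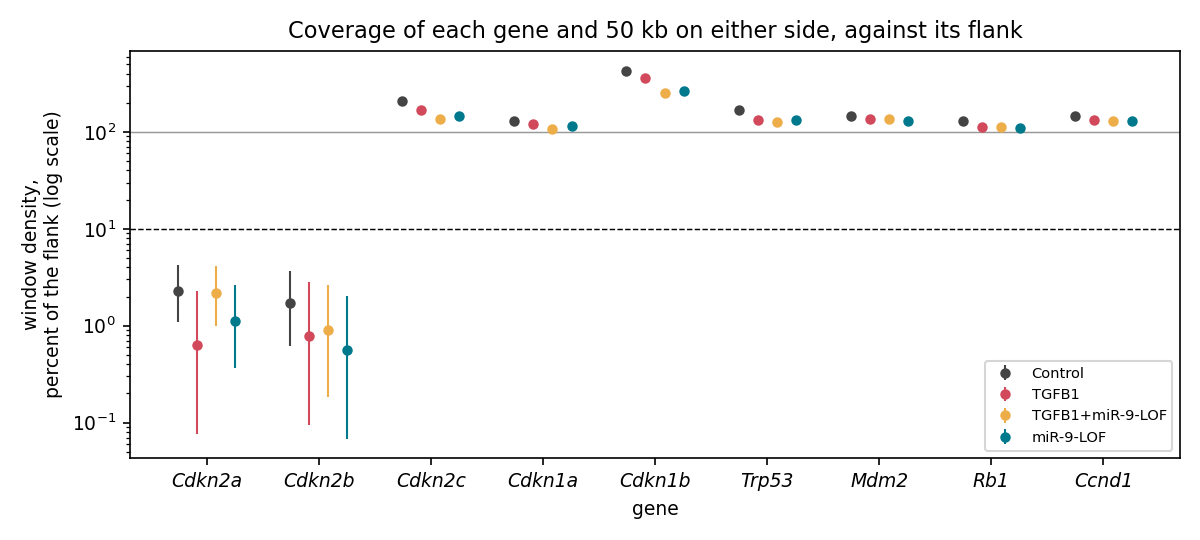
Pair-end density over each gene and 50 kb on either side as a percent of the density in the 5 Mb on either side (y axis, log scale), for the 9 genes (x axis) in each of the 4 libraries (colours), with 95% exact Poisson intervals as bars. The points of *Cdkn2a* and *Cdkn2b* lie between 0.555% and 2.30%, below the dashed line at 10%, and those of the other genes lie between 108% and 430%, above the solid line at 100%.

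The 7 covered genes ranged from 108% to 430% of their flanks. *Cdkn1b*, which encodes p27, had the highest window, with 430% of its flank in Control, 357% under TGFB1, 253% under TGFB1+miR-9-LOF and 263% under miR-9-LOF. *Cdkn2c*, which encodes p18, was the next highest in Control with 209% and had 135% in TGFB1+miR-9-LOF. *Trp53*, which encodes p53, had 167% in Control and 126% to 133% in the other libraries. *Mdm2* had 128% to 144%, *Ccnd1*, which encodes cyclin D1, had 129% to 144%, *Rb1*, which encodes the retinoblastoma protein, had 111% to 129%, and *Cdkn1a*, which encodes p21, had 108% to 129%. These windows hold H3K4me3-enriched bins. With those bins left out and the 4 libraries summed, the log2 ratio of window to flank went from 0.24 to -0.0144 for *Cdkn1a* and from 0.72 to 0.32 for *Cdkn2c*. It went from 1.69 to 1.37 for *Cdkn1b*, from 0.49 to 0.33 for *Trp53*, from 0.44 to 0.41 for *Mdm2*, from 0.43 to 0.37 for *Ccnd1* and from 0.22 to 0.12 for *Rb1*. The *Trp53* window held 2306 to 4191 ends and the *Rb1* window 2107 to 3356. The flank of *Ccnd1* was cut short by the end of chromosome 7.

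The stretch without pair ends around *Cdkn2a* and *Cdkn2b* ran from chr4:89215001 to chr4:93070000, a length of 3855 kb. This span, by a rule chosen after seeing the data, came from the 4 libraries summed, with runs 1 bin apart joined and 5-kb bins set against the median bin of the chromosome. Summing the libraries alone gave 1005 kb. The planned rule, which asks for a gap bin in every library without a break, gave 150 kb, from 89255001 to 89405000. Stray ends interrupted the run, and the flank whose median bin set the limit holds part of the stretch. By that rule 92.1% of the 771 bins of the full span were gap bins. The stretch contained 7 coding genes: *Cdkn2a*, *Cdkn2b*, *Dmrta1*, *Zfp352*, *Elavl2*, *Izumo3* and *Gm12666*. It held 280 ends in Control, 222 under TGFB1, 303 under TGFB1+miR-9-LOF and 221 under miR-9-LOF, which was 0.760% to 1.13% of the mean density of the stretches of equal length on either side. Of sampled 31-base words in the stretch, 79.9% occur once in the genome, against 86.3% to the left, 84.2% to the right and 80.6% genome-wide.

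The few ends inside the stretch differed from those beside it. Their mates lay on another chromosome in 73.9% to 92.3% of cases, against 15.7% to 24.0% beside the stretch. Mapping quality of at least 30 was reached by 65.6% to 76.8% of them, against 92.4% to 96.0% beside it.

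*Mtap*, the methylthioadenosine phosphorylase gene that neighbours *Cdkn2a*, lay outside the stretch and ended 33.9 kb before it. Its body held 746 ends in Control, 487 under TGFB1, 531 under TGFB1+miR-9-LOF and 562 under miR-9-LOF, and, in the same order, 206, 100, 93 and 119 ends lay within 2 kb of its start. On the far side *Tusc1* was the next coding gene, with 76, 49, 42 and 43 ends within 2 kb of its start. Both neighbours were therefore covered in every library.

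**Figure D2:**
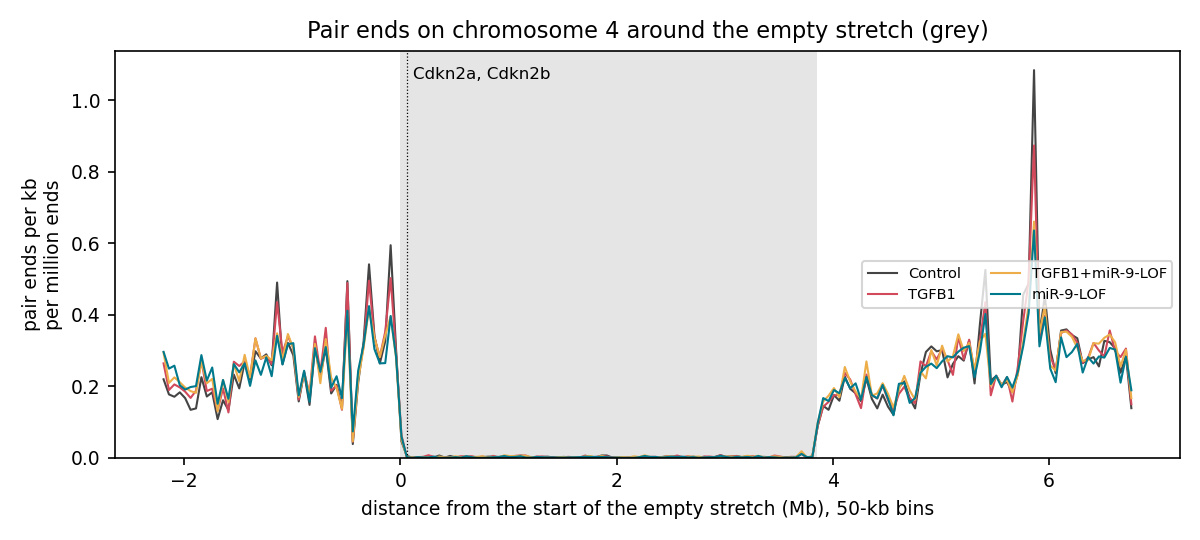
Pair ends per kb per 1000000 ends in 50-kb bins (y axis) by distance from the start of the empty stretch in Mb (x axis), for the 4 libraries (lines). All 4 lines drop to near 0 across the grey stretch of 3.855 Mb, which holds *Cdkn2a* and *Cdkn2b* near its left end (dotted line), and return after it.

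Pairs that join the 2 sides of the stretch were counted next. There were 0 pairs between the 1 Mb on either side, where 68.5 were expected at their distance in the reference, with an upper limit of 3.69 pairs. Between the 50 kb on either side there were also 0, but with 0.154 expected this count carries no information. A search of all 1-Mb bins for partners of each side, added after this result, found the right side paired with sequence on the same chromosome 49.2 Mb away. Between the 500 kb before chr4:43858015 and the 500 kb after chr4:93071493 there were 930 pairs where 14.0 were expected, a ratio of 66.6. Each library showed it, with 232 pairs in Control, 182 under TGFB1, 227 under TGFB1+miR-9-LOF and 289 under miR-9-LOF, against 4.20, 2.61, 3.33 and 3.83 expected. The 500 kb after chr4:43858015 had 6 pairs with the same sequence where 5.77 were expected, but the edge was placed where these pairs ended, so both counts are descriptions. With both ends at mapping quality 30 there were 803 pairs where 12.6 were expected.

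Near the edges the pairs were also set against unbroken sequence. With the distances of both ends from their edges summed, 15 pairs fell under 20 kb, 31 from 20 to 50 kb, 51 from 50 to 100 kb, 121 from 100 to 200 kb, 408 from 200 to 500 kb and 500 from 500 to 1000 kb. At 20 points of unbroken sequence on chromosome 4, each 1 Mb from the next, the medians were 15.5, 31.5, 61.5, 151, 473 and 711.5 in the same order. The range over the 20 points was wide, from 0 to 117 pairs under 20 kb, and in the band furthest from the edges from 6 to 1567, so that lying inside it says little.

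**Figure D3:**
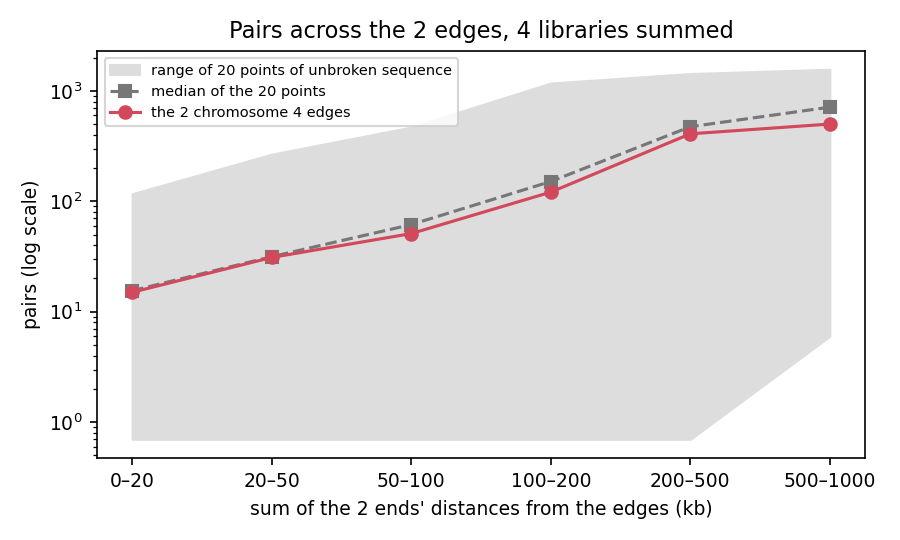
Pairs (y axis, log scale, values of 0 drawn at the foot) by the summed distance of both ends from the 2 chromosome 4 edges in kb (x axis), 4 libraries summed, both ends at mapping quality 30. The pairs across the edges (circles, from 15 to 500) are drawn beside the median of 20 points of unbroken sequence (squares, from 15.5 to 711.5) and the range of those points (grey), and lie at or below the median in every band.

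The reference letters next to each edge are given because these 2 sequences, 49.2 Mb apart in the reference, shared the excess of pairs. The edges are the outermost positions of such pair ends. Capitals mark GATC in the plus strand of GRCm38.p6. The next GATC beyond the edges lay 267 bases after the first edge and 22 bases before the second. Of the bases shown, 30 before the first edge and 55 after the stretch are repeat-masked. The excess was counted over 500 kb on each side, and whether the letters shown are joined in the cells was not tested.

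Before the first edge, chr4:43857936-43858015: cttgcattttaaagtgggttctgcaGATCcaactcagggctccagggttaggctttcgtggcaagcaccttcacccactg
After the stretch, chr4:93071493-93071572: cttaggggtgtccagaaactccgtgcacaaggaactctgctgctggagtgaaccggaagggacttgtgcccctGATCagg

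Coding genes within 50 kb of the first edge were the olfactory receptor genes *Olfr155*, *Olfr156* and *Olfr157* and *Reck*, which encodes a membrane-anchored inhibitor of matrix metalloproteinases. *Reck* starts beyond the edge and held 972 ends in Control, 664 under TGFB1, 704 under TGFB1+miR-9-LOF and 823 under miR-9-LOF. The coverage of chromosome 4 outside enriched bins changed at both places. Relative to the autosome median it was 0.921 to 0.995 up to the first edge, 0.599 to 0.615 from there to the stretch, 0.00457 to 0.00822 in the stretch and 0.875 to 0.924 after it. For the left side of the stretch the 15 strongest 1-Mb partner bins all lay before it on chromosome 4. The first of them (chr4:83000001-84000000) had 91 pairs where 1.91 were expected, against 1038 where 3.93 were expected for the first of the right side. In this search the expected numbers followed coverage alone, with no term for distance. They cannot be set beside the expected numbers given above, which take distance into account.

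*Cdkn2c* lies on the same chromosome, after the stretch. The 5 Mb around its start had 49 pairs with the 5 Mb before the stretch, where 924 were expected, and 1748 pairs with the 5 Mb before the first edge, where 864 were expected. In each library the first count was 0.0372 to 0.0635 of the expected number and the second was 1.92 to 2.13 times the expected number. The 5 Mb around the *Cdkn2c* start thus had more pairs with the more distant of the 2 sequences, a count of the region and not of the promoter.

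The second comparison concerned pair ends within 2 kb of the transcription start site (TSS), where H3K4me3 gathers at active genes. No signal was seen at *Cdkn2a* and *Cdkn2b*. Within 2 kb of the ARF start there were 2 ends in Control and 0 in the other libraries, within 2 kb of the p16 start 0 ends in all 4, and within 2 kb of the *Cdkn2b* start 1 end in TGFB1+miR-9-LOF and 0 elsewhere. By a floor of 3 counts, which is lower than the upper bound of the exact interval, a count of 0 allows up to 0.0978 ends per 1000000 in Control, 0.138 under TGFB1, 0.106 under TGFB1+miR-9-LOF and 0.0965 under miR-9-LOF.

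The other 7 genes each had an enriched region at a start. *Cdkn1a* carried the highest signal, at its most covered start (chr17:29093781), with 50.2 ends per 1000000 in Control, 39.4 under TGFB1, 21.8 under TGFB1+miR-9-LOF and 27.6 under miR-9-LOF. At the 5′ end of the same gene (chr17:29090976), which holds the match to the p53 pattern shown above, it had 6.10, 4.70, 4.97 and 3.57 and no enriched region. The most covered start was chosen after the counts were seen. These levels are not set against local density, over which *Cdkn2c* at its most covered start was higher than *Cdkn1a* in every library, as given below.

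*Trp53* had 24.6 ends per 1000000 in Control, 15.1 under TGFB1, 9.05 under TGFB1+miR-9-LOF and 11.4 under miR-9-LOF. Its promoter is shared with *Wrap53*, which encodes a telomerase and Cajal body protein, starts 104 bases away and runs the other way, so these ends belong to both genes. *Cdkn1b* had 23.8, 16.3, 10.5 and 10.7 in the same order.

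*Ccnd1* had 16.6 ends per 1000000 in Control, 10.8 under TGFB1, 7.17 under TGFB1+miR-9-LOF and 8.84 under miR-9-LOF. *Cdkn2c* had 15.9, 9.90, 6.07 and 6.85 at its 5′ end, and 19.7, 12.5, 7.24 and 8.23 at its most covered start (chr4:109665372). Of the 3 INK4 genes described here *Cdkn2c* was the only one with a covered promoter, and INK4 proteins oppose cyclin D1 through CDK4 and CDK6.

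*Mdm2* had 11.4 ends per 1000000 in Control, 9.07 under TGFB1, 5.68 under TGFB1+miR-9-LOF and 5.98 under miR-9-LOF. *Rb1* had the lowest signal of the 7, with 8.77, 5.98, 5.15 and 3.54. Control was the highest library for all 7 genes, and TGFB1 was the next highest. Most promoters shared the lead of Control, since 98.6% of the 8235 with an enriched region were lower in TGFB1 than in Control and 99.6% were lower in miR-9-LOF than in Control. Over promoters with and without a region these shares were 69.2% and 68.8%. The intervals of miR-9-LOF and TGFB1+miR-9-LOF overlapped for 5 of the 7 genes, with *Rb1* (2.91 to 4.26 against 4.34 to 6.06) and *Cdkn1a* (25.8 to 29.5 against 20.1 to 23.5) as the exceptions. This pair of libraries was not among those tested against each other below, and the share of all promoters without overlap was not computed. The levels are not relative to the median promoter, and *Cdkn1a* is given at the start chosen after the counts were seen. Nothing is therefore read from this count about the members.

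Over the density 20 to 100 kb away, the TSS density of the 7 genes, at the 5′ end except for *Cdkn1a* at its most covered start, was 4.42- to 17.7-fold in Control, 3.38- to 11.6-fold in TGFB1, 2.29- to 6.84-fold in TGFB1+miR-9-LOF and 2.08- to 8.40-fold in miR-9-LOF. The choice of start moved both ends of these ranges, since *Cdkn2c* had 22.1-, 14.6-, 8.06- and 9.05-fold at its most covered start and *Cdkn1a* had 1.54-, 1.28-, 1.56- and 1.08-fold at its 5′ end, in the same order of libraries. *Cdkn1a* at its most covered start had 12.7-, 10.8-, 6.84- and 8.40-fold, lower in every library than *Cdkn2c* at its most covered start. Control and TGFB1 were also the libraries with the largest shares of ends in enriched regions.

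**Figure D4:**
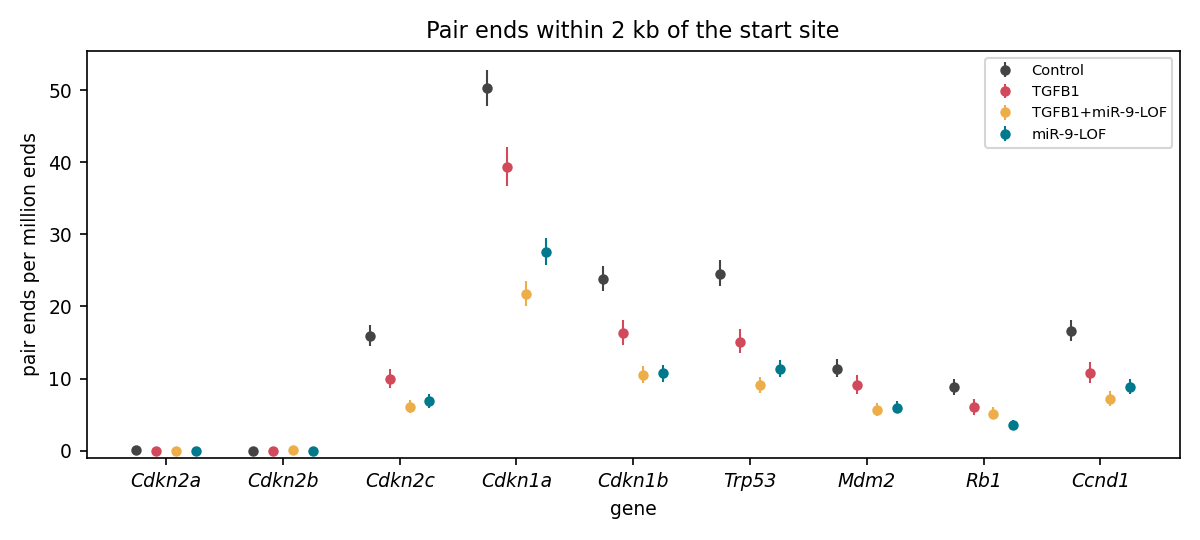
Pair ends within 2 kb of the start site per 1000000 ends (y axis) for the 9 genes (x axis, *Cdkn1a* at its most covered start) in each library (colours), with 95% exact Poisson intervals as bars. *Cdkn2a* and *Cdkn2b* lie at or next to 0, and for each of the other 7 genes the Control library is the highest.

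To set the libraries side by side, each ratio between 2 libraries was read relative to the median ratio over the 8235 promoters with an enriched region, and was called at an adjusted p of at most 0.05 (two-sided exact binomial test, Benjamini-Hochberg over those promoters) and at least 1.5-fold from the median. Such a test compares libraries, not conditions. The median promoter itself moved by -0.44 (TGFB1 over Control), -0.68 (TGFB1+miR-9-LOF over TGFB1) and -0.91 (miR-9-LOF over Control) on the log2 scale of ends per 1000000.

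Of the 6 members tested at their 5′ ends, 0 were called in TGFB1 over Control, where 0.206% of the promoters with an enriched region were called, 0 in TGFB1+miR-9-LOF over TGFB1, where 0.68% were called, and 0 in miR-9-LOF over Control, where 2.03% were called. The relative log2 ratios ran from -0.26 (*Trp53*) to 0.11 (*Mdm2*) in TGFB1 over Control, with a lowest adjusted p of 0.159 by the exact binomial test. They ran from -0.06 (*Trp53*) to 0.46 (*Rb1*, 95% interval 0.11 to 0.81, adjusted p = 0.155 by the exact binomial test) in TGFB1+miR-9-LOF over TGFB1. They ran from -0.40 (*Rb1*, -0.73 to -0.08) to -0.0019 (*Ccnd1*, -0.22 to 0.21) in miR-9-LOF over Control, with a lowest adjusted p of 0.0631 by the exact binomial test, that of *Cdkn2c*. At its most covered start *Cdkn2c* had -0.35 (-0.57 to -0.14) in that contrast, with an adjusted p of 0.0128 by the exact binomial test, and missed the fold limit. *Cdkn1a*, tested at its most covered start among 8720 promoters, had 0.09 (-0.03 to 0.21), -0.18 (-0.33 to -0.03) and 0.05 (-0.08 to 0.17) in the 3 contrasts and was not called.

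The sign of some ratios depended on the scaling. Relative to library totals, all 6 genes were lower in miR-9-LOF than in Control by at least 1.5-fold and called, 5 of 6 were so in TGFB1+miR-9-LOF against TGFB1, and 3 of 6 (*Cdkn2c*, *Trp53* and *Ccnd1*) in TGFB1 against Control. On that scale 90.4%, 67% and 17.9% of the promoters with an enriched region were called in the same contrasts.

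The TGFB1 ratio was also compared without and with miR-9-LOF. For *Rb1* TSS ends it was -0.11 relative to the median without and 0.74 with the antagomiR, a difference of -0.85 (95% interval -1.32 to -0.38). Its adjusted p was 0.0514 in a log-linear model over the promoters with an enriched region, of which 0.68% passed 0.05. The difference for *Cdkn1b* was -0.27 (-0.57 to 0.02), and those of *Cdkn2c*, *Trp53*, *Mdm2* and *Ccnd1* lay between -0.27 and -0.01 with intervals that contained 0.

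The third comparison counted promoter contacts, that is, pairs with an end up to 10 kb from the TSS and a span of 20 kb to 2 Mb. *Cdkn2a* and *Cdkn2b* had 0 contacts in every library, which by the same floor of 3 counts allows up to 0.448 contacts per 1000000 pairs in that range in Control and 0.626 in TGFB1. *Cdkn1a* had the most, with 765 contacts in Control, 472 under TGFB1, 360 under TGFB1+miR-9-LOF and 503 under miR-9-LOF. As contacts per 1000000 pairs in that range these were 114, 98.5, 60.5 and 76.3, above 98.3% to 99.4% of coding promoters. This rank, like those below, is over all 21755 coding promoters, of which 8235 had an enriched region. The counts were not corrected for the coverage of each promoter.

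*Cdkn1b* had 89.1 contacts per 1000000 in Control, 68.8 under TGFB1, 45.4 under TGFB1+miR-9-LOF and 47.3 under miR-9-LOF. *Trp53* had 79.2, 52.8, 42 and 44.0, and *Ccnd1* had 72.5, 59.0, 46.9 and 52.9. These genes thus lay in the upper part of the coding promoters, above 89.4% to 96.4% of them.

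*Cdkn2c* had 46.2, 31.7, 20.3 and 25.9 contacts per 1000000 in the same order, *Mdm2* had 35.1, 31.7, 25 and 26.2, and *Rb1* had 30.9, 21.9, 23.4 and 17.6. Control was the highest library for all 7 genes and TGFB1 the next highest for 6 of them. Among the 8235 promoters, 93.8% had fewer contacts per 1000000 in TGFB1 than in Control and 98.4% had fewer in miR-9-LOF than in Control. Over promoters with and without a region these shares were 67.6% and 66.8%. Of the 8235, 94.1% had fewer contacts per 1000000 in TGFB1+miR-9-LOF than in TGFB1, and over promoters with and without a region 67.8% had fewer. For *Rb1* the intervals of TGFB1 and TGFB1+miR-9-LOF overlapped (17.9 to 26.5 against 19.6 to 27.6).

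In contacts, 0 of 6 tested members were called in TGFB1 over Control (0.0121% of promoters called), 0 of 6 in TGFB1+miR-9-LOF over TGFB1 (0.158%) and 0 of 6 in miR-9-LOF over Control (1.32%). These counts depended on the scaling, since relative to library totals members were called in each contrast, as given in the section on processing below. *Cdkn1b* in miR-9-LOF over Control had a relative log2 ratio of -0.36 (-0.56 to -0.16) and an adjusted p of 0.0106 by the exact binomial test, which missed the 1.5-fold limit. *Cdkn1a*, tested among promoters with a region at the most covered start, had -0.36 (-0.56 to -0.16) for TGFB1+miR-9-LOF over TGFB1 (adjusted p = 0.0404 by the exact binomial test), likewise under the fold limit. The difference of the TGFB1 ratio without and with the antagomiR passed for 0 members, against 0.0486% of promoters with an enriched region. It was -0.70 (-1.19 to -0.21) for *Rb1*, with an adjusted p of 0.396 over those promoters in the log-linear model.

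Within the wider list of 39 cell cycle and p53 genes, 35 were tested and 0 were called in TSS ends in any contrast. In contacts 0 were called in the TGFB1 contrasts and 1 of 35 in miR-9-LOF over Control, where 1.32% of the promoters with an enriched region were called, so that nothing is read from this count about the list. The gene was *E2f3*, which encodes an activating E2F factor. Its promoter had 650 contacts in Control, 330 under TGFB1, 247 under TGFB1+miR-9-LOF and 267 under miR-9-LOF, a relative log2 ratio of -0.71 (-0.92 to -0.50, adjusted p = 6.02e-09 by the exact binomial test). By group, 13 p53 targets, 9 cyclins and kinases, 6 E2F factors, 4 p53 regulators and 3 other inhibitors and pocket proteins were tested. The median relative log2 TSS ratio of the 35 genes was -0.01, -0.01 and -0.13 in the 3 contrasts, and that of the 6 members was -0.15, 0.02 and -0.22, beside 0 for the promoters with an enriched region by construction.

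The last comparison asked with which sequence the member promoters were in contact. With the 4 libraries summed, pairs of 10-kb bins were called at an adjusted p of at most 0.05 (Poisson test over all bin pairs from 20 kb to 2 Mb), at least 5 pairs and at least 2 times the number expected from coverage and distance. Partner bins were called for 3 of 9 members, *Ccnd1*, *Cdkn1a* and *Trp53*, against 25% of all coding promoters and 42.4% of those with an enriched region. With the plain product of coverages for the expected number, chosen after seeing the data, they were called for *Ccnd1* and *Cdkn2c* instead, against 39.3% of those with a region. The main result used weights fitted so that each bin's total was met. They took the place of the plain product after it had called false pairs at chromosome ends in simulated data. The calls of *Cdkn1a* and *Trp53* thus depended on this choice. With 9 genes, no difference from these shares was tested.

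*Ccnd1* had 11 partner bins, all upstream of the gene, from 110 to 310 kb away, where most promoters with an enriched region had 0 and 90% had at most 3. The bin with the most pairs lay 170 kb upstream (chr7:145100001-145110000), with 55 pairs where 12.4 were expected (20 in Control, 9 under TGFB1, 9 under TGFB1+miR-9-LOF and 17 under miR-9-LOF). A run of 6 bins from 260 to 310 kb upstream lay over *Tpcn2*, which encodes an endolysosomal ion channel, and 1 of them held the start of *1810010D01Rik*. The bin 310 kb away had 43 pairs where 7.87 were expected. None of the 11 bins held an enriched region.

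The contacts of *Ccnd1* were one-sided. Up to 400 kb upstream there were 788 pairs where 373 were expected, a ratio of 2.11 (1.97 to 2.26), and up to 400 kb downstream 108 pairs where 422 were expected, a ratio of 0.256 (0.210 to 0.309). Each library showed this, with 290 upstream and 44 downstream pairs in Control, 147 and 24 under TGFB1, 148 and 17 under TGFB1+miR-9-LOF and 203 and 23 under miR-9-LOF. The gene lies near the end of chromosome 7, where bins have fewer partners in range. The expected numbers were fitted so that each bin's total was met, to avoid too low a value for such bins. With the total fixed in this way, the upstream and downstream ratios are not independent of each other. Whether the end of the chromosome accounts for the difference between the sides was not tested.

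*Cdkn1a* had 2 partner bins, 40 and 50 kb upstream. The nearer one (chr17:29050001-29060000) had 142 pairs where 49.998 were expected, and the other (chr17:29040001-29050000), which overlaps *Srsf3*, a splicing factor gene, had 137 where 44.9 were expected. By library the latter had 61 pairs in Control, 37 under TGFB1, 17 under TGFB1+miR-9-LOF and 22 under miR-9-LOF. The upstream side had 1.39 times the expected pairs up to 400 kb (1.30 to 1.49) and the downstream side 0.936 times (0.862 to 1.01).

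*Trp53* had 1 partner bin, 20 kb downstream (chr11:69600001-69610000), which holds the start of *Atp1b2*, a sodium pump subunit gene. It had 43 pairs where 14.1 were expected, 18 in Control, 8 under TGFB1, 10 under TGFB1+miR-9-LOF and 7 under miR-9-LOF. *Cdkn2c*, *Cdkn1b*, *Mdm2* and *Rb1* had 0 partner bins, though *Cdkn2c* had more pairs than expected downstream (1.58 times, 1.40 to 1.78) and fewer upstream (0.628 times, 0.511 to 0.764).

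**Figure D5:**
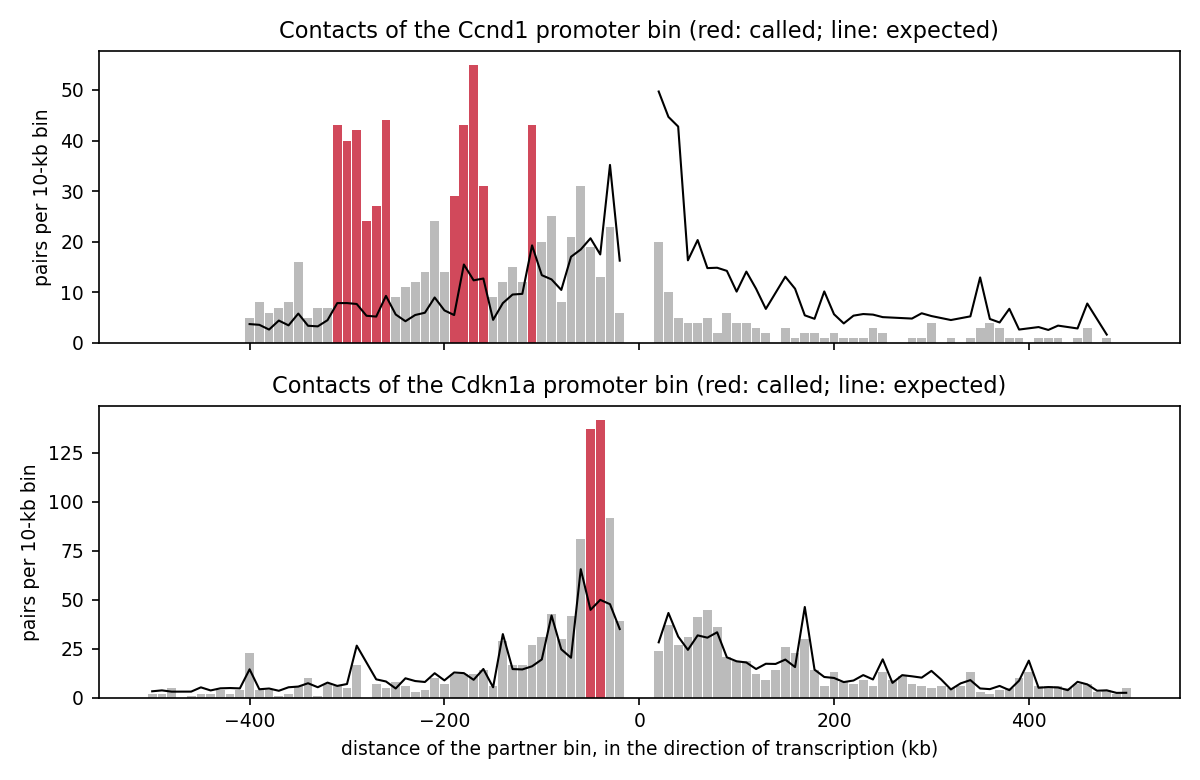
Pairs of the *Ccnd1* (top) and *Cdkn1a* (bottom) promoter bins with each 10-kb bin (y axis), by distance in the direction of transcription in kb (x axis, negative is upstream), 4 libraries summed. Red bars are called partner bins, grey bars are not, and the line is the expected number. The 11 called bins of *Ccnd1* and the 2 of *Cdkn1a* all lie upstream.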

How the data were processed

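H3K4me3 HiChIP-seq was analysed in 4 libraries of MLg cells, 1 per condition. The authors aligned and filtered the reads with HiC-Pro on mm10 (versions not given in the sources used here) and deposited 1 list of valid pairs per library, with the position of each end and its mapping quality, a deposited score. The labels and the study's methods give different numbers of cells per library. All further values were computed from the lists with Python 3.11.15, NumPy 2.4.6 and SciPy 1.17.1. Gene positions were those of GENCODE release M21, and sequences those of RefSeq GRCm38.p6. Depth was 10864558 to 15568047 valid pairs per library.

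Windows, TSS ends and contacts were counted as stated beside each result, over all coding genes, and tested across all promoters with an enriched region. Enriched regions were 1-kb bins with 4-fold or more of both the mean of their chromosome and that of 100 kb around them (false discovery rate 0.01), in all libraries pooled at equal depth. Expected numbers for partner bins and for the sides of a promoter followed coverage and distance, with weights fitted so that each bin's total was met. Those for pairs between stretches of chromosome 4 were products of coverages, scaled by the pairs of that chromosome at a like distance. The search of 1-Mb bins used coverage alone. The procedures were tested on simulated data with planted changes. A test between 2 libraries covers counting error only. The alternatives changed mapping quality, window, flank, bin, threshold, scaling and the promoters tested.

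The member genes and the lists were chosen with earlier results of these data known. Named genes were all 9 members, genes called in the wider list, and genes that share a member's promoter, lie in the stretch or within 50 kb of its sides, or start in a called partner bin. The genes at the distant edge, *Tusc1*, *Tpcn2*, *Srsf3* and *Skint3* were named after their values were seen. No protein sequences were used here.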

Additional observations from a re-analysis of the deposited data

How the results depend on the processing

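The count of members with a gap, 2 of 9, was the same under all 6 alternatives planned for it, whereas the length of the unbroken gap moved from 150 kb to 1115 kb at a threshold of 25%, 370 kb in 10-kb bins, 55 kb at mapping quality 30, and, in alternatives chosen after seeing the data, 1005 kb with the libraries summed, 2970 kb with runs 1 bin apart joined and 3855 kb against the chromosome median as well. The summed window ratio of *Cdkn1a* changed sign to -0.0144 (log2) without enriched bins. With library totals in place of the median, 3, 5 and 6 members were called in TSS ends in TGFB1 over Control, TGFB1+miR-9-LOF over TGFB1 and miR-9-LOF over Control, and 1, 2 and 4 in contacts, all lower, beside 3.42%, 11.3% and 45.3% of the promoters with an enriched region called in contacts. On that scale *Cdkn1b* (-0.64), *Mdm2* (-0.68) and *Ccnd1* (-0.59) changed sign in TSS ends of TGFB1+miR-9-LOF over TGFB1. So did *Rb1* (-0.22, not called), and *Mdm2* changed sign in TSS ends of TGFB1 over Control (-0.33, not called). With all promoters as the reference, 4 members in TSS ends and 3 in contacts were called in miR-9-LOF over Control, beside 29.4% and 14.7% of promoters. At a lower fold limit 1 member, *Cdkn1b*, was called in contacts of miR-9-LOF over Control, beside 7.76% of promoters. Both changes of reference move the median that ratios are read against. In 20-kb bins 6 members had a partner bin (*Cdkn2c*, *Cdkn1a*, *Cdkn1b*, *Trp53*, *Rb1* and *Ccnd1*), as had 70.1% of promoters with a region. With the plain product of coverages, chosen after seeing the data, 2 members had one, *Ccnd1* and *Cdkn2c*, as had 39.3% of promoters with a region, so that *Ccnd1* alone was called under every setting run. The cause was not tested. In all, 52 of the alternative values of the main results were as reported, or within 1.5 times for counts, and 16 moved. The window side, mapping quality, running-median scaling and start site changed no count of members called. No paired analysis was possible because each condition had 1 library, and for the same reason no library could be left out of a contrast. Depth limits the contrasts, as the interval beside each ratio shows.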

Other observations

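The highest bin on another chromosome for the left side of the stretch was the last one of chromosome 7, which the end of the chromosome cuts short, with 16 pairs where 1.78 were expected (4 in Control, 3 under TGFB1, 3 under TGFB1+miR-9-LOF and 6 under miR-9-LOF). For the right side it was a bin of chromosome 6 with 5 pairs where 1.01 were expected. These are counts without a test, and their expected numbers followed coverage alone. The 500 kb after the distant edge and the 500 kb before the stretch had 43 pairs where 10.4 were expected from coverage and distance.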
